A study of Homo sapiens with 4 samples.

Results

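The hematopoietic cytokine receptor chains described here are 10 genes, chosen by symbol: IL2RG, IL2RA, IL2RB, IL4R, IL7R, IL15RA, IL21R, CSF2RB, CSF3R and IL6R. All 10 were found among the 21865 gene symbols of the deposited tables. The study measured messenger RNA, by sequencing, in 4 human acute myeloid leukemia lines, with 1 library per line. HL60 is a promyelocytic line, KG1a an immature CD34-expressing line, while the monocytic pair, THP-1 with MonoMac-1, has the MLL-AF9 fusion gene; the labels give only the line names, and lineage and fusion status are general knowledge. All lines were grown in serum-containing medium with antibiotics, and no treatment, and no clone or passage, is named. The THP-1 sample is titled with an unexplained "tr", so a treatment or modification of that culture is not known.

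Cytokine receptors of this class have no kinase of their own. A ligand brings chains together, JAK kinases bound to their tails phosphorylate STAT proteins, and SOCS proteins limit the signal. Several receptors share a chain: the common gamma chain (IL2RG) serves the receptors for IL-2, IL-4, IL-7, IL-9, IL-15 and IL-21, the common beta chain (CSF2RB) those for GM-CSF, IL-3 and IL-5, and gp130 (IL6ST) those of the IL-6 family. In blood, gamma chain receptors are best known from lymphocytes, and the G-CSF and GM-CSF receptors from myeloid cells.

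Levels are RPKM as the authors deposited them, which are per length and so can be set side by side between genes. Coverage on genes ran from 6.04 gigabases for THP-1 up to 13.6 for MonoMac-1. Intervals in parentheses are exact 95% Poisson intervals on coverage counted as fragments of 200 bases. They cover counting error only, since no line had a second library. Marker genes were set beside the lineages known for these lines, which the labels do not give. The summed level of 10 monocyte markers was 28.8 RPKM in HL60 and 3.01 in KG1a, while THP-1 reached 1073 and MonoMac-1 5357. LYZ alone made up 4837 RPKM of the sum in MonoMac-1, 510 in THP-1 and 12.0 in HL60. CD34 stood at 494 RPKM in KG1a. The summed level of the 8 granulocyte precursor markers did not set HL60 apart. It was 5775 RPKM in HL60, 6930 in MonoMac-1, 6498 in THP-1 and 24.0 in KG1a. MPO, a granule enzyme gene, was highest in HL60 (4610 RPKM). So was CEBPE, at 178 RPKM, against 16.1 in MonoMac-1, 4.99 in THP-1 and 0.0409 in KG1a. In contrast, ELANE, PRTN3, AZU1 and CTSG were higher in both MLL-AF9 lines. The HL60 library stood apart in one respect. Of genes outside the lists used here, 19 were at 50 RPKM or more in KG1a and under 1% of that in THP-1 and MonoMac-1, and in HL60 they lay at a median of 2.79% of the KG1a level (lower quartile 2.62%, upper quartile 4.53%). HL60 values are therefore also given, for some of the genes, after 2.79% of the KG1a value was taken off. What that share stems from was not tested.

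IL2RG was the most abundant of the 10 chains in HL60 and KG1a and lay at 7.42 RPKM or less in the monocytic lines. IL6R led in THP-1 and CSF3R in MonoMac-1. IL4R was nearly level over the lines, CSF2RB was scarce in KG1a, and IL2RA and IL2RB stayed under 1 RPKM in every library. The summed level of the 10 chains was 183 RPKM for HL60, 285 for KG1a, 131 for MonoMac-1 and 178 for THP-1. IL2RG made up 68.9% of that sum in HL60 and 61.2% in KG1a, but only 0.939% for THP-1 and 5.66% for MonoMac-1. IL6R made up 62.8% in THP-1, and CSF3R 45.9% in MonoMac-1.

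**Figure D1:**
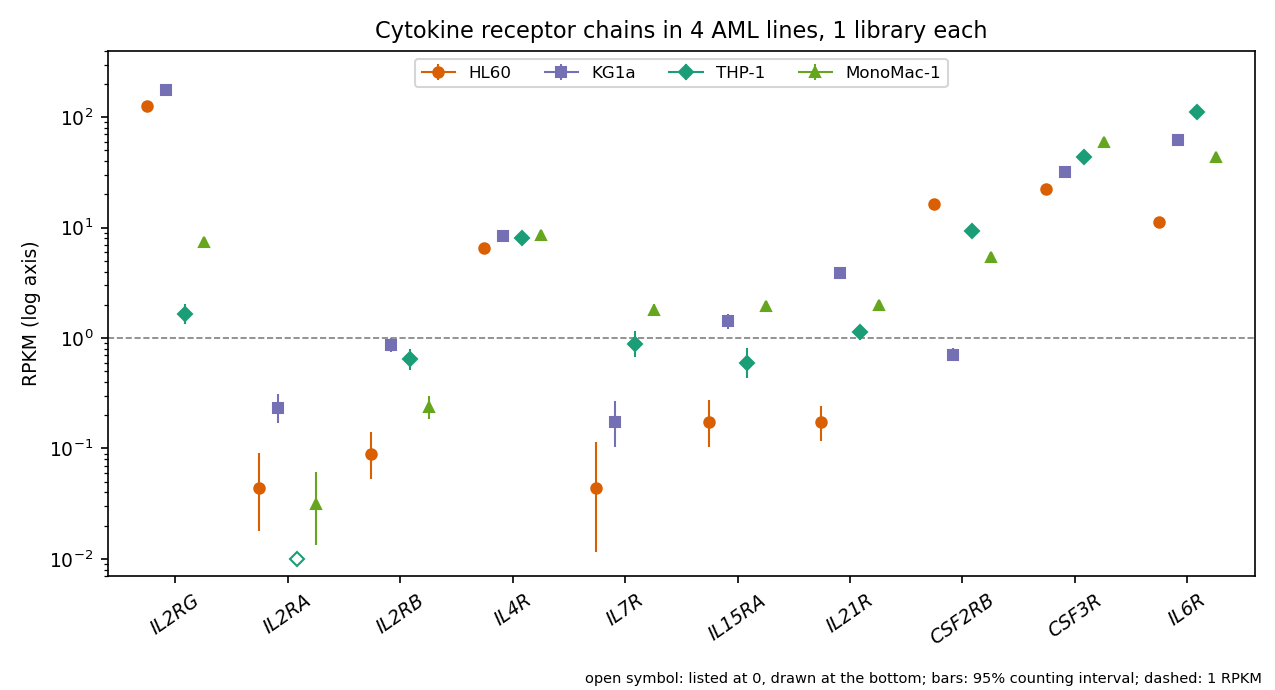
RPKM (log axis) of the 10 receptor chains in the 4 lines, 1 symbol per library, with bars for the 95% counting interval, a dashed line at 1 RPKM and an open symbol where a gene was listed at 0. IL2RG spans 1.67 to 175 RPKM, while IL4R stays between 6.51 and 8.60.

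**Figure D2:**
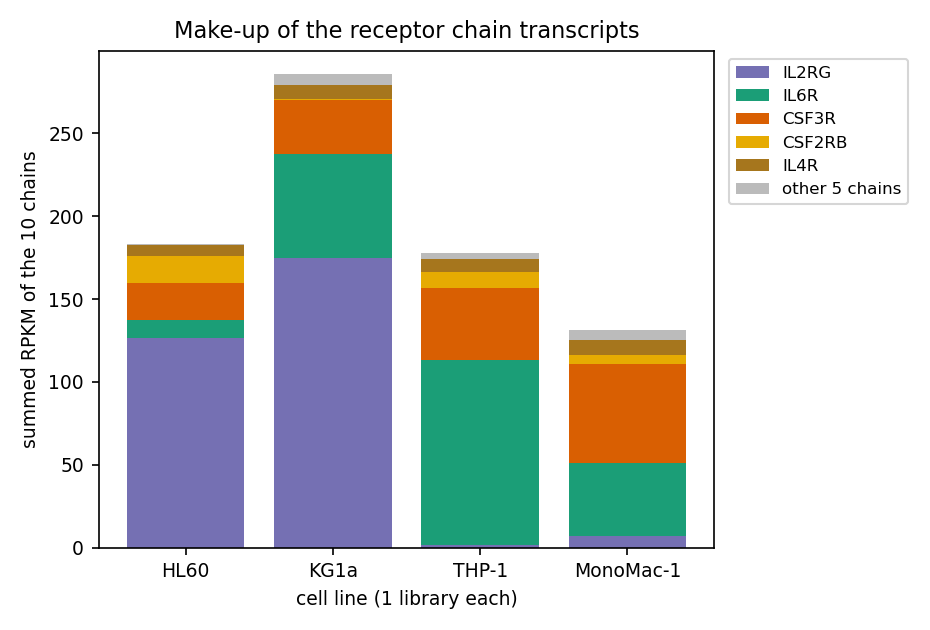
Stacked bars of the summed RPKM of the 10 chains in each line (1 library each), split by gene, with the other 5 chains together in grey. IL2RG fills 68.9% of the HL60 bar and 61.2% of the KG1a bar, IL6R 62.8% of the THP-1 bar.

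At 1 RPKM or more stood 5 of the 10 chains for HL60, 6 each for KG1a and THP-1, and 8 for MonoMac-1, where 48.3%, 50.1%, 51.9% and 51.4% of all symbols did. A gene is called measured when it reached 1 RPKM in at least 1 line, as 12976 symbols and 8 of the 10 chains did. IL2RA and IL2RB were not measured in this sense. IL7R passed only through MonoMac-1, the line in which it was highest, so its difference is not independent of the filter.

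The shared gamma chain IL2RG (chromosome X, 70327254 to 70331481, hg19) stood at 126 RPKM in HL60 (124 to 129), 175 in KG1a (172 to 177), 1.67 in THP-1 (1.34 to 2.05) and 7.42 in MonoMac-1 (6.94 to 7.92). Both lines without the fusion were high, both MLL-AF9 lines were low, and the pairs did not overlap. By rank among all symbols IL2RG was gene 463 in HL60 and 229 in KG1a, and for THP-1 gene 10544, for MonoMac-1 gene 7083. HL60, the lower of the high pair, exceeded MonoMac-1 by 17.03-fold (15.9 to 18.3). KG1a exceeded HL60 by 1.38-fold (1.35 to 1.42), and MonoMac-1 exceeded THP-1 by 4.45-fold (3.58 to 5.60). Taking the KG1a share off left 121 RPKM in HL60, so the level there did not rest on it. In such bulk libraries fewer expressing cells and less RNA per cell cannot be told apart.

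IL7R, the IL-7 receptor alpha chain of developing lymphocytes (chromosome 5, 35856991 to 35876923), ran the other way at low levels. It stood at 0.0438 RPKM in HL60 (0.0116 to 0.114), 0.173 in KG1a (0.104 to 0.269), 0.888 in THP-1 (0.670 to 1.15) and 1.78 in MonoMac-1 (1.57 to 2.01). Both MLL-AF9 lines lay above both other lines, with THP-1 5.15-fold (3.01 to 9.18) above KG1a. The HL60 value rested on 3.89 fragment equivalents. IL2RG and IL7R together form the IL-7 receptor, and MonoMac-1 was the 1 line with both at 1 RPKM or more.

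IL2RG and IL7R were the members that set the line pairs apart in opposite directions, and their promoters are shown for that reason. The sequences are the 250 bases before the RefSeq start (GRCh38.p14, gene strand, 5′ to 3′), IL2RG at chrX:71111578-71111827 on the minus strand and IL7R at chr5:35856641-35856890 on the plus strand. Capitals mark GGAAG on either strand (CTTCC where it lies on the other strand), the core bound by ETS factors.
IL2RG: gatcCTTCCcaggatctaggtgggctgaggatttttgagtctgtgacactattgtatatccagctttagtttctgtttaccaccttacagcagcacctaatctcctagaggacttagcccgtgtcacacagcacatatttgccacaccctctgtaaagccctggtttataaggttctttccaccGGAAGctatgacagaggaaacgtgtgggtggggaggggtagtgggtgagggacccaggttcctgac
IL7R: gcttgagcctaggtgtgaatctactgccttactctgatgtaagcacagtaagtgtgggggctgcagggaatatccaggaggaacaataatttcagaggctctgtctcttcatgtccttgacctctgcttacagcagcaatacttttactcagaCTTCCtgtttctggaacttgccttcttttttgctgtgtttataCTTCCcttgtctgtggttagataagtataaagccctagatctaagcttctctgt

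Both windows held the core at 2 places, beginning 246 and 66 bases before the start in IL2RG and 97 and 54 bases before it in IL7R. The core is common, being found in 65.1% of all 35116 promoter windows of this length. The GATA motif AGATAA, found in 9.17% of all windows, lay 36 bases before the IL7R start and was not found in the IL2RG window. Neither window held the C/EBP motif TTGCNNAA (9.05% of all windows) or the STAT motif TTCNNNGAA (6.57%). RefSeq gave promoter windows for 8 of the 10 chains, 12 windows in all, of which 10 held the ETS core. IL15RA and CSF3R each gave multiple windows, and overlapping windows of IL15RA held the same core match. The 10 is thus a count of windows, not of genes or separate sites. These matches are letters in a window, and no binding was measured.

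The chains specific to the IL-2 and IL-15 receptors, IL2RA and IL2RB, were scarce. IL2RA, the alpha chain of the high-affinity IL-2 receptor (chromosome 10, 6052657 to 6104333), stood at 0.0442 RPKM in HL60, 0.234 in KG1a and 0.0312 in MonoMac-1, and was listed at 0 in THP-1, where 3 fragment equivalents would have been 0.0268 RPKM. IL2RB, the beta chain shared by the IL-2 and IL-15 receptors (chromosome 22, 37521880 to 37545962), had 0.0897 RPKM in HL60, 0.237 in MonoMac-1, 0.643 in THP-1 and 0.868 in KG1a. Neither reached 1 RPKM in any library, HL60 and KG1a with their high IL2RG included.

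IL15RA, which presents IL-15 (chromosome 10, 5994334 to 6020142), stood at 0.175 RPKM in HL60 (0.103 to 0.277), 1.41 in KG1a (1.21 to 1.64), 0.597 in THP-1 (0.431 to 0.805) and 1.95 in MonoMac-1 (1.74 to 2.18). IL21R, the ligand-binding chain for IL-21 (chromosome 16, 27413483 to 27463363), stood at 0.172 RPKM in HL60 (0.118 to 0.242), 3.89 in KG1a (3.64 to 4.15), 1.13 in THP-1 (0.952 to 1.32) and 2.01 in MonoMac-1 (1.85 to 2.18). HL60 was lowest for both. With the KG1a share taken off, HL60 was left at 0.135 RPKM for IL15RA and 0.0634 for IL21R. An overlapping gene, LOC283888, was at 0.132 RPKM or less in every line, and reads of overlapping genes may not be separable.

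IL4R, the alpha chain for IL-4 and IL-13 (chromosome 16, 27325251 to 27376099), varied least of the 8 measured chains. It stood at 6.51 RPKM in HL60 (6.15 to 6.88), 8.43 in KG1a (8.06 to 8.81), 8.11 in THP-1 (7.64 to 8.61) and 8.60 in MonoMac-1 (8.27 to 8.94). MonoMac-1, KG1a and THP-1 could not be ordered beyond counting error (MonoMac-1 over KG1a 1.02-fold, 0.962 to 1.08; KG1a over THP-1 1.04-fold, 0.965 to 1.12), and THP-1 exceeded HL60 by 1.25-fold (1.15 to 1.35). Its standard deviation over the lines on the log2(RPKM + 1) scale was 0.16, and 4.82% of measured genes varied less. For IL2RG it was 2.96, with 99.3% of measured genes varying less, and the median of measured genes was 0.53.

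**Figure D3:**
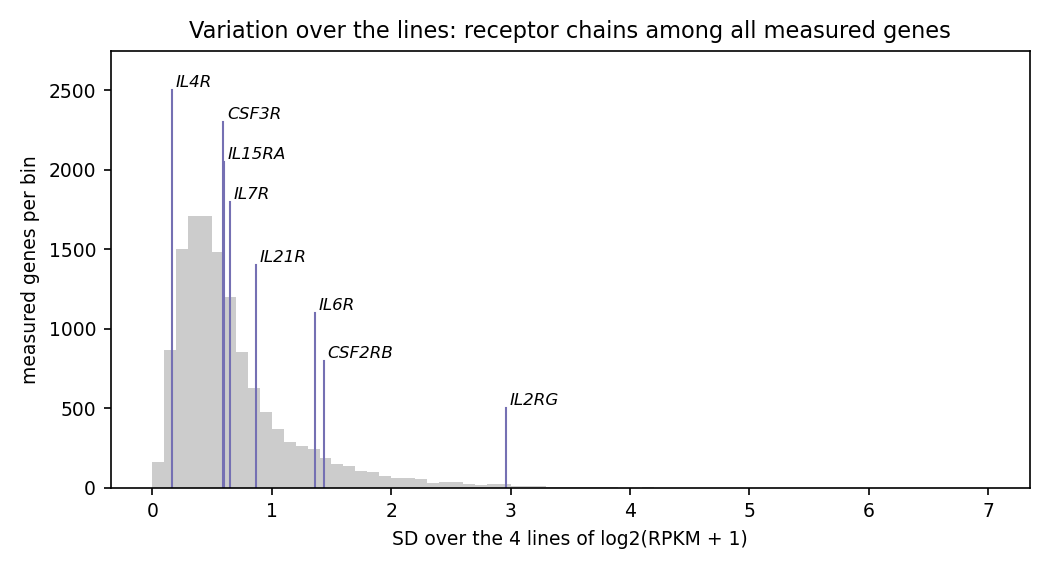
Histogram of the standard deviation over the 4 lines of log2(RPKM + 1) for 12976 measured genes, with a vertical line for each of the 8 measured receptor chains (line heights only separate the labels). IL4R lies at 0.16 and IL2RG at 2.96; the other 6 lie between 0.59 and 1.43.

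IL4R and IL21R are neighbours on chromosome 16, 37.4 kb apart, and IL15RA and IL2RA on chromosome 10, 32.5 kb apart. CSF2RB and IL2RB lie 185 kb apart on chromosome 22. Levels differed within each of these pairs: IL21R spanned 0.172 to 3.89 RPKM beside the even IL4R, and CSF2RB reached 16.4 RPKM in HL60, where IL2RB stood at 0.0897.

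Among the myeloid chains, CSF2RB, the beta chain common to the GM-CSF, IL-3 and IL-5 receptors (chromosome 22, 37309675 to 37336479), stood at 16.4 RPKM in HL60 (15.9 to 16.9), 0.710 in KG1a (0.617 to 0.812), 9.34 in THP-1 (8.89 to 9.82) and 5.38 in MonoMac-1 (5.15 to 5.62). KG1a alone was under 1 RPKM, and MonoMac-1, the next lowest, exceeded it by 7.58-fold (6.58 to 8.78). HL60 exceeded THP-1 by 1.75-fold (1.65 to 1.86). In KG1a the shared gamma chain was thus at 175 RPKM and the shared beta chain at 0.710.

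CSF3R, the G-CSF receptor, which signals as a pair of its own chains (chromosome 1, 36931644 to 36948915), stood at 22.3 RPKM in HL60 (21.6 to 23.1), 32.2 in KG1a (31.5 to 33.0), 43.8 in THP-1 (42.6 to 45.0) and 60.1 in MonoMac-1 (59.2 to 61.1). Every line was above 20 RPKM, the MLL-AF9 lines were above the other lines, and each step in the order was of 1.36-fold to 1.44-fold, larger than counting error. With the KG1a share taken off, HL60 was left at 21.4 RPKM. Its promoter is shown as that of a member abundant in all 4 lines, from the start whose downstream bases were found in a GENCODE transcript, at chr1:36482914-36483163 (GRCh38.p14, minus strand, 250 bases before the RefSeq start). Capitals again mark GGAAG on either strand.
CSF3R: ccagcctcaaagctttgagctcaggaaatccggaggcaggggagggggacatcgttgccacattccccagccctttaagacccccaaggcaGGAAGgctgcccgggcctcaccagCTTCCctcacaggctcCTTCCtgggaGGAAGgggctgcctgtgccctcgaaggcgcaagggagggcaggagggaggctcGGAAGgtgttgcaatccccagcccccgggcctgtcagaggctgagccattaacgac

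This window held the ETS core at 5 places, against 2 each in those of IL2RG and IL7R. The number of places per window was not counted over all windows, so nothing is read from this difference. RefSeq lists a second CSF3R start, whose window held no ETS core and 1 C/EBP motif.

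IL6R, the ligand-binding chain for IL-6 (chromosome 1, 154377669 to 154440188), stood at 11.2 RPKM in HL60 (10.7 to 11.7), 62.8 in KG1a (61.8 to 63.8), 112 in THP-1 (110 to 113) and 43.5 in MonoMac-1 (42.8 to 44.3). THP-1 was highest, at 1.78-fold KG1a (1.74 to 1.81), and HL60 lowest, 3.89-fold (3.72 to 4.07) under MonoMac-1. The MLL-AF9 lines and the others overlapped, since KG1a lay between THP-1 and MonoMac-1. With the KG1a share taken off, HL60 was left at 9.44 RPKM.

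Setting the monocytic pair against the other lines asks what sets the MLL-AF9 lines apart. In these lines the fusion and the monocytic lineage coincide and cannot be told apart. By a rule that the lower value of one pair be at least 4 times the higher value of the other, 1 of the 8 measured chains (IL7R) was higher in both MLL-AF9 lines and 1 (IL2RG) lower, where 4.35% and 2.21% of measured genes were. By any margin 2 chains (IL7R and CSF3R) were higher and 1 (IL2RG) lower, where 22.1% and 19.6% of measured genes were. Counts of 1 or 2 among 8 chains were not read as a departure from these shares. IL7R was among the 8 only through MonoMac-1, so its calls and its difference below are not independent of the filter. The median log2 difference was 0.47 over the 8 chains and 0.02 over all measured genes.

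With the line as the unit, limma's moderated test left 2 residual degrees of freedom. For IL2RG the log2 difference of the MLL-AF9 lines from the others was -4.98 (SE 0.63, Benjamini-Hochberg adjusted p = 0.172, limma), with both MLL-AF9 lines lower. It was 1.05 for IL7R (SE 0.52, adjusted p = 0.672, limma), 1.34 for IL6R (SE 0.92, adjusted p = 0.741, limma; 0.15 without HL60, 0.68 without THP-1 and 2.54 without KG1a) and 0.91 for CSF3R (SE 0.38, adjusted p = 0.615, limma). After adjustment limma called 0 of the 8 chains and 0 of 12976 genes (0%). At an unadjusted p under 0.05 there were 1 chain (IL2RG) and 8.55% of all genes, 767 higher and 342 lower. The IL2RG difference thus did not pass the threshold once all genes were allowed for.

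No chain was at least 4-fold above all 3 other lines in a single line (0 of 8), where 0.979% of measured genes were so for HL60, 5.05% for KG1a, 2.03% for MonoMac-1 and 2.76% for THP-1. The reverse rule, by which all 3 other lines were at least 4 times higher, took IL21R in HL60 (3.5% of measured genes), CSF2RB in KG1a (7.38%), IL2RG in THP-1 (1.63%) and none in MonoMac-1 (2.32%). After the KG1a share was taken off HL60, 4 chains met it in HL60 (IL21R, IL15RA, IL6R and IL7R), where 5.88% of measured genes did, and the count over all lines went from 3 to 6.

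The gamma chain signals through the kinase JAK3, which binds its tail, and JAK3 did not follow IL2RG in HL60. JAK3 stood at 77.1 RPKM in KG1a (76.1 to 78.0), 2.12 in HL60 (1.95 to 2.30), 0.0533 in THP-1 (0.0256 to 0.0978) and 0.417 in MonoMac-1 (0.358 to 0.483). The HL60 value was 2.75% of that in KG1a, close to the 2.79% at which the 19 KG1a genes lay there, and it was 0 once that share was taken off. IL2RG in HL60 was 72.3% of the KG1a value. Of the lines with abundant IL2RG, KG1a thus held abundant JAK3, and the HL60 value did not exceed that share.

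**Figure D4:**
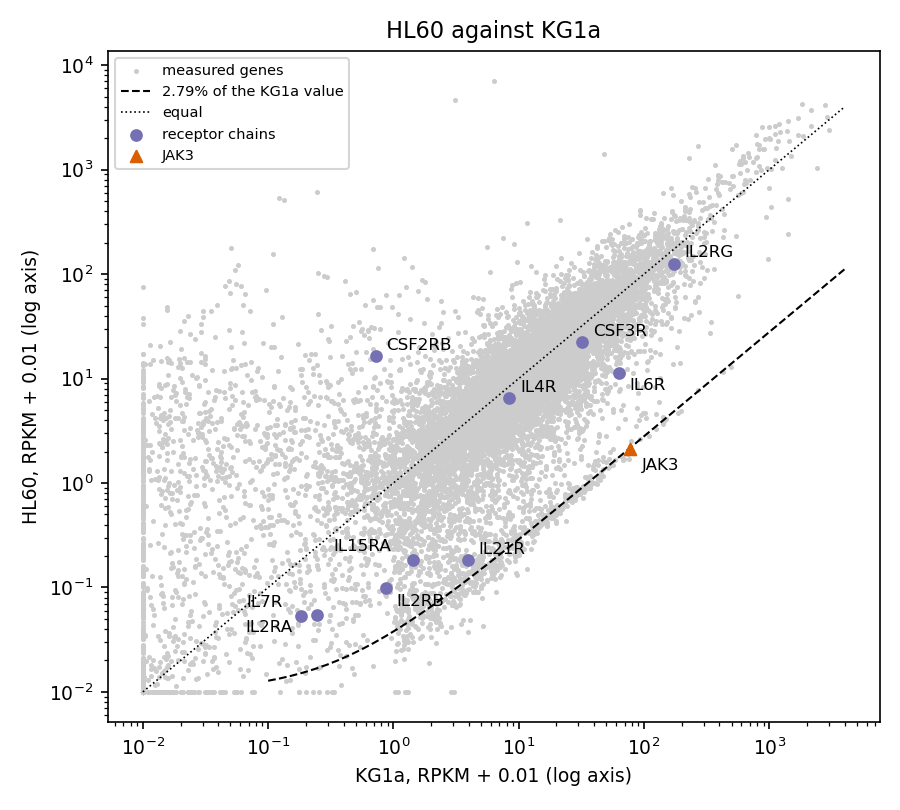
HL60 against KG1a, RPKM + 0.01 on log axes, for all measured genes (grey), the 10 receptor chains (circles) and JAK3 (triangle), with a dashed line at 2.79% of the KG1a value and a dotted line of equal levels. IL2RG lies near equality at 126 and 175 RPKM, while JAK3 lies on the dashed line at 2.12 and 77.1 RPKM.

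Transcripts of T and NK cells, where gamma chain receptors are best known, were most abundant in KG1a. Of 16 such markers 9 were at 1 RPKM or more in KG1a, 3 each in HL60 and MonoMac-1, and 2 in THP-1. Their summed level was 264 RPKM for KG1a, 25.2 for HL60, 175 for MonoMac-1 and 17.9 for THP-1. In MonoMac-1 NKG7 alone, a granule gene of cytotoxic cells, made up 159 RPKM. Of the 10 measured markers 6 met the 4-fold rule as lower in both MLL-AF9 lines (2.21% of measured genes), and 3 after the KG1a share was taken off HL60. The 3 markers at 1 RPKM or more in HL60 were NKG7 (18.0 RPKM, and 122.5 in KG1a), CD3D (1.88, and 10.6 in KG1a) and CD247 (1.46, and 56.1 in KG1a). KLRD1 was listed at 0 in HL60, KG1a and THP-1. B cell markers summed to 12.6 RPKM for HL60, 1.14 for KG1a, 6.72 for MonoMac-1 and 3.91 for THP-1. The part of these programmes in the IL2RG difference was not tested.

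Of the 23 partner chains of the wider family, 16 were measured, and 5 were listed at 0 in all libraries. Of these 5, CSF2RA, IL3RA, CRLF2 and IL9R are listed on both X and Y, in regions these chromosomes share, so no level is read from these zeros, those of the GM-CSF and IL-3 partners of CSF2RB included. By the 4-fold rule 2 partner chains were higher in both MLL-AF9 lines (4.35% of measured genes) and 1, IL5RA, lower (2.21%). The IL5RA call rested on values at or near 0: KG1a had 2 fragment equivalents, under the floor of 3, and its interval overlapped those of the lines listed at 0. The higher ones were IL13RA1, which joins IL4R in the receptor for IL-4 and IL-13, and IL12RB2, a chain of the IL-12 receptor. IL13RA1 had 0.918 RPKM in HL60, 0.0164 in KG1a, and 17.4 and 4.80 in THP-1 and MonoMac-1. IL12RB2 had 0.645 and 0.154 RPKM in the former lines, and 14.3 and 22.1 in the latter. IL5RA, the IL-5 partner of CSF2RB, stood at 3.18 RPKM in HL60 and 0.0113 in KG1a and was listed at 0 in both other lines. IL12RB1, the other IL-12 receptor chain, was low in HL60 by the single-line rule (0.313 RPKM, the other lines 4.21 or more), as were 3.5% of measured genes. In HL60 it stood at 2.35% of the KG1a level, and at 0 with the share taken off.

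Beside the even IL4R, then, its partners IL2RG and IL13RA1 differed between the pairs of lines in opposite directions. IL6ST, the signalling partner of IL6R, had 0.839 RPKM in HL60, 1.28 in MonoMac-1, 4.97 in THP-1 and 6.86 in KG1a, below IL6R in every line. Taking the KG1a share off left 0.648 RPKM of IL6ST in HL60. IL27RA, a partner of IL6ST, stood at 50.2 RPKM in KG1a, and the other lines had 3.91 to 9.44. IL23R (2.69 RPKM), a chain of the IL-23 receptor, and IL5RA met the single-line rule in HL60.

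Ligand transcripts were scarce in all 4 lines. Of 16 ligands 2 were measured: OSM, an IL-6 family cytokine, at 0.511 RPKM in THP-1, 1.26 in HL60, 2.69 in MonoMac-1 and 3.86 in KG1a, and TSLP at 1.11 in MonoMac-1. IL4, IL9, IL3 and IL6 were listed at 0 in every library. Ligands of a gamma chain receptor stayed under 0.3 RPKM, IL15 in KG1a being the most abundant at 0.293.

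Of the 15 JAK, STAT and SOCS genes 14 were measured, with none higher in both MLL-AF9 lines by the 4-fold rule (4.35% of measured genes) and 1, JAK3, lower (2.21%), a call that was lost when the KG1a share was taken off HL60 (0 of 14). By any margin 3 were higher and 5 lower (22.1% and 19.6%). KG1a alone was high by the 4-fold rule for JAK3, STAT4 (6.69 RPKM) and SOCS3 (2.87 RPKM), 3 of 14 where 5.05% of measured genes were. JAK1, which serves gamma chain and gp130 receptors, stood at 63.9 RPKM in KG1a, and the other lines had 17.5 to 22.8. Its HL60 level of 19.1 RPKM became 17.4 with the KG1a share taken off. JAK2, the kinase of CSF2RB, stood at 1.43 RPKM in HL60 and between 6.56 (KG1a) and 12.9 (THP-1) elsewhere, so that the line with the most CSF2RB had the least JAK2, a single-line low that 3.5% of measured genes showed for HL60. STAT6, the factor downstream of IL4R, stood at 12.3 RPKM in KG1a, 30.7 in HL60, 51.5 in MonoMac-1 and 54.8 in THP-1. SOCS2 reached 29.7 RPKM in MonoMac-1 and 8.99 in KG1a, and was at 1.05 in HL60 (0.799 with the KG1a share taken off) and 0.670 in THP-1.

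**Figure D5:**
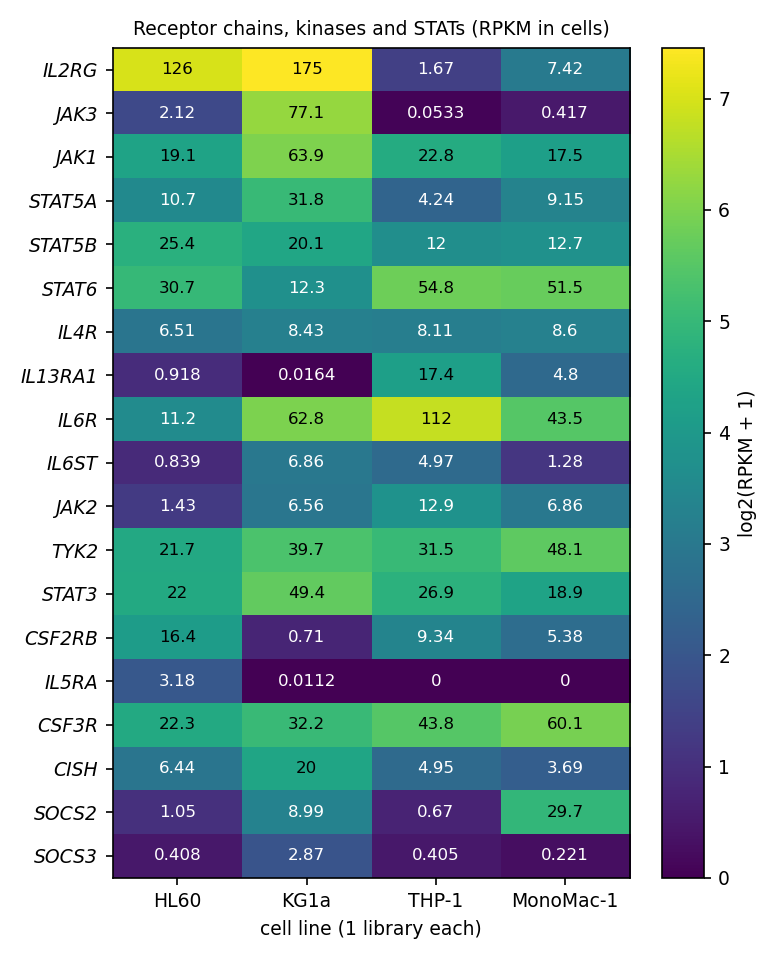
RPKM (numbers) of receptor chains, JAK kinases, STATs and SOCS genes in the 4 lines, coloured by log2(RPKM + 1). The IL2RG row is bright in HL60 and KG1a, whereas the JAK3 row is bright in KG1a alone.

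The genes nearest to each abundant chain were taken by the smallest value of the largest log2(RPKM + 1) difference over the 4 lines, among 12975 genes. For CSF3R these were AP3S1, CENPW and IER3IP1 (differences of 0.20, 0.24 and 0.25). For IL6R they were SMYD3, ITGAL and SLC44A1 (0.31, 0.69 and 0.84), and for CSF2RB TMEM154, SETD7 and ME1 (0.38, 0.50 and 0.55). IL2RG had no close match: the nearest were JUP (1.36), PECI (1.58) and ADA (1.73). JUP stood at 104 RPKM in KG1a, 48.6 in HL60, 5.87 in MonoMac-1 and 1.59 in THP-1. Likeness over 4 libraries is a description only.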

How the data were processed

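RNA of 4 lines was sequenced, 1 library each. CASAVA 1.8.2 and the hg19 build appear in the submitters' processing notes. Aligner, annotation, strand handling and filters were not given in the sources used here. In each table the authors deposited an RPKM and a whole-number coverage signal per gene. The coverage unit is not stated and was read from the values as sequenced bases, since 200 was the commonest low value in each library; intervals divide it by 200. In MonoMac-1 fewer low values were multiples of 100 (10.1% against 41.7% to 47.0%), so its intervals are less certain. Where a symbol had several entries (28 symbols), that with the highest mean over the lines was kept. Tests used log2(RPKM + 1), which understates changes of weak genes. They were run with limma 3.58.1 in R 4.3.3 (eBayes with trend, two-sided, Benjamini-Hochberg over 12976 genes, threshold 0.05). The code was also run on simulated data. The noise there was set below the median spread of the measured genes over these lines, so power in these data was not tested. Fold rules used RPKM itself. P-values measure the spread between lines, not between cultures. Promoter sequences are RefSeq's (GRCh38.p14) and were matched by symbol; gene coordinates are hg19 as deposited. The members and lists were chosen with earlier results of these data known. All members were named, with partner genes that met a 4-fold rule, form a complex with a member or reached 10 RPKM. For members at 10 RPKM or more the 3 nearest genes were named. OSM and TSLP, the measured ligands, and some marker genes (CD3D, CD247, KLRD1, CD34, MEIS1, PROM1, GATA2, CEBPE, ELANE, PRTN3, AZU1, CTSG) were named after their values were seen. Alternatives changed scaling, pseudocount, filter, variance model and fold, left out each line, or took the KG1a share off HL60.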

Additional observations from a re-analysis of the deposited data

How the results depend on the processing

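No paired analysis was possible because each line had 1 library, so no label pairs the samples. The count of chains lower in both MLL-AF9 lines by the 4-fold rule stayed at 1 under every alternative run. The count higher in both (1) was 0 at 8-fold and 0 under quantile normalization, and ran from 1 to 2 when a line was left out (2 without HL60 and 2 without KG1a). Chains high in a single line (0) were 1 at 2-fold, and 0 to 1 when a line was left out (1 without HL60, KG1a or THP-1). The count low in a single line (3), a rule chosen after the data were seen, was 6 at 2-fold, 0 at 8-fold, 6 with the KG1a share taken off HL60, and 3 to 4 without a line. By any margin, also chosen after the data were seen, the counts ran from 2 to 6 higher (6 without KG1a, 4 without THP-1) and from 1 to 2 lower (2 without HL60 or KG1a). Limma called 0 of the chains under every alternative run. The IL2RG difference ran from -5.81 to -4.15 (adjusted p 0.104 to 0.462, limma). Differences near 0 turned sign: IL21R was -0.10 under quantile normalization, -0.95 without HL60 and -0.17 without MonoMac-1, IL15RA -0.15 without HL60 and -0.08 without MonoMac-1, IL4R -0.012 without HL60, and CSF2RB -1.10 without KG1a. Without a line the differences ran from -0.95 to 1.11 for IL21R, -0.15 to 0.89 for IL15RA, -0.012 to 0.32 for IL4R, -1.10 to 2.25 for CSF2RB and 0.15 to 2.54 for IL6R. IL7R (1.05) was 2.78 with a pseudocount of 0.1. Leaving out a line leaves 1 line in an arm, assumed to vary like the others. The causes were not tested, apart from the fewer lines or the stricter fold that an alternative sets. Scaling by median of ratios or taking off the KG1a share moved 9 levels outside their counting intervals. Depth limits IL2RA in THP-1 and IL7R in HL60, which rest on at most 3.89 fragment equivalents.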
